A study of Canis lupus familiaris with 4 samples.

Results

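*ADM*, *VEGFA*, *EDN1*, *ANGPTL4*, *STC1* and *NDRG1* are known targets of the hypoxia-inducible factors (HIFs), and 5 of them encode secreted proteins. They were taken by gene symbol from the array annotation, which gives them 9 probe sets, none shared with another symbol, of 42924 probe sets and 15115 named genes in all. All 9 probe sets passed a filter that kept 9766 genes, those with an intensity of at least 28.6, the median of the table, on 1 or more of the arrays. *NDRG1* and 1 of the probe sets of *VEGFA* passed it on the hypoxic arrays only. The cells were MDCK strain II, a canine kidney epithelial line. HIF2α-KD cells carry a retroviral shRNA against *EPAS1*, the gene of HIF2α, and the control cells, called wild type in the sample labels, were taken to carry the empty shRNA cassette that the study used as its control. The knockdown cells were selected with puromycin. For the normoxic arrays the study names a single knockdown line, and the labels do not name the line, so that no second line is known to stand behind these values. All cells grew for 24 h in normoxia (16% O2) and then for 24 h in hypoxia (1% O2) or in normoxia, which gives 4 conditions: HIF2α-KD in hypoxia, control in hypoxia, HIF2α-KD in normoxia and control in normoxia. A single Affymetrix canine array was hybridised for each. Without replicates, a plain difference of 1 array and 1 array carries neither an error nor a p-value.

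HIFs are dimers of an oxygen-regulated α subunit and a stable β subunit. When oxygen is low the α subunit escapes degradation, and the dimer binds hypoxia-response elements and raises transcription. Among its products are peptides and growth factors that leave the cell and act on blood vessels: adrenomedullin widens them, vascular endothelial growth factor A makes them grow, and endothelin-1 constricts them. ANGPTL4 inhibits lipoprotein lipase, stanniocalcin-1 is a glycoprotein hormone linked to calcium and phosphate handling, and NDRG1 is not secreted but is a cytoplasmic protein that accumulates under hypoxia and other stresses. HIF1α and HIF2α share many of these targets. The arrays set the hypoxia difference of each gene under the HIF2α-KD label beside that in control cells.

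The median intensity of the arrays was 28.2 to 29.1. The 63 dim reporter probe sets, which represent no canine gene, had a 95th percentile of 20.6 to 27.2, and a probe set at or below that value on its own array is called here not above background. Of 9 epithelial markers with a probe set, 8 were above background on all arrays, and *CDH1* was above it in hypoxia only. Above it on none were 7 of 8 endothelial, 5 of 7 fibroblast, 3 of 7 leukocyte and 3 of 4 smooth muscle markers. Other markers went the other way and were above it on all arrays. They were the endothelial *CDH5* (88.8 to 117), the smooth muscle *TAGLN* (57.9 to 98.7), the fibroblast *PDGFRA*, and the leukocyte *PTPRC*, *CD3E* and *CD68* (26.25 to 45.28). The fibroblast list summed to 149 on the HIF2α-KD array and 215 on the control array in hypoxia, against 106 on the HIF2α-KD array and 103 on the control array in normoxia. Its defining collagen genes *COL1A1*, *COL1A2* and *COL3A1* were above background on no array, and *PDGFRA* gave 145 on the hypoxic control array. *EPAS1* had an intensity of 32.6 on the HIF2α-KD array and 116 on the control array in hypoxia, and 47.9 on the HIF2α-KD array and 44.6 on the control array in normoxia. These values come from its brighter probe set, which was itself dim, and the other was above background on no array. The study reported depletion of this mRNA in its knockdown lines by RT-qPCR, a separate measurement. The target was therefore lower under the knockdown label in hypoxia but not in normoxia, and the array with that label in normoxia is called here the normoxic array labelled HIF2α-KD. Every direction given for that array rests on its label.

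Under hypoxia *ADM* and *NDRG1* were many-fold brighter, *VEGFA* and *ANGPTL4* were brighter by a smaller factor, and *STC1* and *EDN1* differed by less. In hypoxic cells *ADM*, *NDRG1* and *VEGFA* were lower on the HIF2α-KD array than on the control array. *STC1* and *EDN1* were lower by less, and *ANGPTL4* was not lower. Thus 5 of the 6 genes were below 0 in that comparison, as were 55.7% of all genes. Only *VEGFA* and, by less, *STC1* were lower on the normoxic array labelled HIF2α-KD. The hypoxia comparisons and the knockdown comparisons share arrays and are not independent of each other. Differences are given on the scale of log2(intensity + 16), where 1 is a 2-fold difference and dim values are pulled toward 0.

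**Figure D1:**
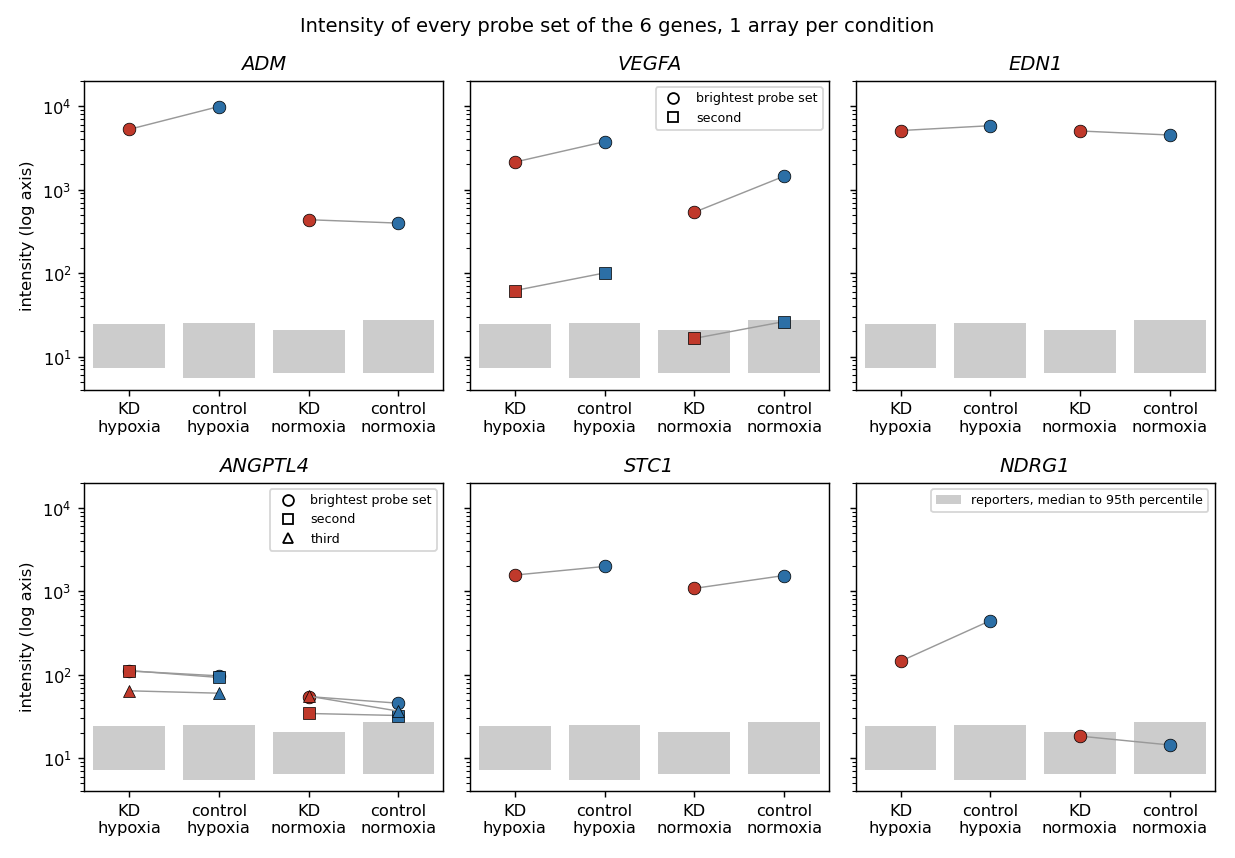
Intensity on a log axis of each probe set of the 6 genes on the HIF2α-KD (red) and control (blue) arrays in hypoxia and in normoxia, 1 point for each probe set and array and therefore without error bars. Grey bars run from the median to the 95th percentile of the reporters, separately for each array. *ADM* lies between 397 and 9897, and *NDRG1* leaves the grey bars in hypoxia only.

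*ADM* encodes the precursor of adrenomedullin, a vasodilator peptide. Its intensity in hypoxia was 5268 on the HIF2α-KD array and 9897 on the control array, against 436 on the normoxic array labelled HIF2α-KD and 397 on the control array in normoxia. Both hypoxic arrays were thus far above both normoxic arrays. The linear ratio of hypoxia to normoxia was 12.1 under the knockdown label and 24.95 in control cells. On the log2 scale these differences were 3.55 and 4.59, each the highest of all 9766 genes.

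Within hypoxia, *ADM* on the HIF2α-KD array reached 53.2% of its intensity on the control array, a log2 difference of -0.91, below that of 98.8% of the genes. In normoxia the difference was 0.13. The rise of *ADM* in intensity units was 4832 under the knockdown label, which is 50.9% of the 9501 units in control cells. Such a lower intensity can come from fewer cells that express a gene or from less RNA per cell, which cannot be told apart in bulk RNA.

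*VEGFA*, the gene of the main growth factor for blood vessels, has a bright and a dim probe set. The bright one had an intensity of 2137 on the HIF2α-KD array and 3752 on the control array in hypoxia. In normoxia it had 535 on the array labelled HIF2α-KD and 1447 on the control array. The lowest value was thus that of the normoxic array labelled HIF2α-KD, and the control cells in normoxia lay below both hypoxic arrays. Hypoxia differed from normoxia by 1.97 on the log2 scale under the knockdown label and by 1.36 in control cells, linear ratios of 3.99 and 2.59.

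HIF2α-KD differed from control at this probe set by -0.81 in hypoxia and by -1.41 in normoxia, and only 0.195% of the genes were lower in the normoxic comparison. *VEGFA* was the only one of the 6 genes at least 2-fold lower there, against 0.543% of all genes, and none was 2-fold higher, against 0.614%. Since *EPAS1* was not lower on the same array, this difference of *VEGFA* stands beside a target gene at 47.9 and 44.6. The dim probe set of *VEGFA* read 61.7 on the HIF2α-KD array and 100.3 on the control array in hypoxia, and in normoxia 16.5 on the array labelled HIF2α-KD and 26.2 on the control array, neither above background. Against the reporter level it was at least 2.99-fold higher in hypoxia under the knockdown label and at least 3.68-fold higher in control cells. It gives no fold for the knockdown in normoxia, and in hypoxia it differed by -0.58, the same direction as the bright probe set.

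*EDN1* encodes the precursor of the vasoconstrictor endothelin-1. Its intensity was 5100 on the HIF2α-KD array and 5834 on the control array in hypoxia, against 5041 on the normoxic array labelled HIF2α-KD and 4509 on the control array in normoxia. The values of the 4 arrays lie close together, with the control cells at both ends. Hypoxia differed from normoxia by 0.02 on the log2 scale under the knockdown label and by 0.37 in control cells, and 19.2% of all genes had a higher difference in control cells. *EDN1* was bright on every array and did not reach a 2-fold difference in any comparison.

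*ANGPTL4*, which encodes an inhibitor of lipoprotein lipase, is covered by 3 probe sets, all above background on each array. The brightest had an intensity of 111.0 on the HIF2α-KD array and 97.1 on the control array in hypoxia, against 54.8 on the normoxic array labelled HIF2α-KD and 45.6 on the control array in normoxia. The second had 112 on the HIF2α-KD array and 92.8 on the control array in hypoxia, and in normoxia 34.4 on the array labelled HIF2α-KD and 32.5 on the control array. At both, the hypoxic values lay above the normoxic ones, and at each oxygen level the array with the knockdown label was the higher.

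Hypoxia differed from normoxia by 0.84 on the log2 scale at the brightest probe set and 1.35 at the second under the knockdown label, and by 0.88 and 1.17 in control cells. The remaining probe set read 64.2 on the HIF2α-KD array and 60.1 on the control array in hypoxia. In normoxia it read 55.4 on the array labelled HIF2α-KD and 36.6 on the control array. Its hypoxia difference was only 0.17 under the knockdown label and 0.53 in control cells. The 3 probe sets thus share a direction but not a size, and 1 of them passed 2-fold on this scale. As a linear ratio of hypoxia to normoxia the brightest gave 2.03 under the knockdown label and 2.13 in control cells. HIF2α-KD minus control was between 0.08 and 0.24 in hypoxia and between 0.06 and 0.44 in normoxia over the 3 probe sets.

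*STC1*, the stanniocalcin-1 gene, had an intensity of 1565 on the HIF2α-KD array and 1985 on the control array in hypoxia, against 1084 on the normoxic array labelled HIF2α-KD and 1546 on the control array in normoxia. The array labelled HIF2α-KD was lower at both oxygen levels, by -0.34 in hypoxia and by -0.51 in normoxia on the log2 scale. The hypoxic HIF2α-KD value and the normoxic control value nearly coincide. Hypoxia differed from normoxia by 0.52 under the knockdown label and by 0.36 in control cells, and no comparison of *STC1* reached 2-fold.

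*NDRG1* was read by a single probe set. Its intensity was 145 on the HIF2α-KD array and 445 on the control array in hypoxia. In normoxia it was 18.4 on the array labelled HIF2α-KD and 14.4 on the control array, both not above background. Against the reporter level it was at least 7.04-fold higher in hypoxia under the knockdown label and at least 16.3-fold higher in control cells. The log2 differences of 2.23 under the knockdown label and 3.92 in control cells depend on the pseudocount, because the normoxic values were not above background, and only the bounds are read here as sizes.

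In hypoxia *NDRG1* on the HIF2α-KD array was 32.6% of the control value, a log2 difference of -1.52 and the 10th lowest of all genes, near that of *EPAS1* itself at -1.45. It was the only one of the 6 genes at least 2-fold lower in that comparison, against 0.881% of all genes, and none was 2-fold higher, against 0.102%. At a 1.5-fold threshold *ADM* and *VEGFA* were lower too, 3 of 6 genes against 4.93% of all genes. Because the normoxic values were not above background, no fold is given for *NDRG1* between the cell lines in normoxia.

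**Figure D2:**
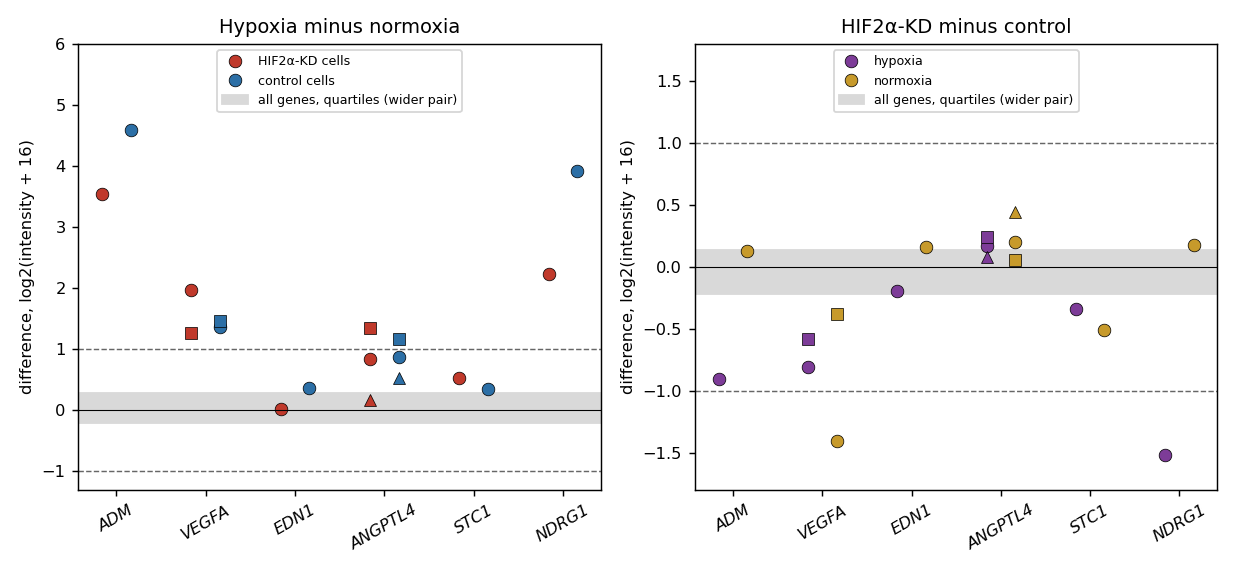
Log2 differences of every probe set of the 6 genes, at the left hypoxia minus normoxia in HIF2α-KD and control cells, at the right HIF2α-KD minus control in hypoxia and in normoxia. Circles, squares and triangles are the probe sets of a gene by falling brightness, dashed lines mark 2-fold, and the grey band spans the quartiles of all 9766 genes. *ADM* reaches 4.59 at the left, and *NDRG1* in hypoxia (-1.52) and *VEGFA* in normoxia (-1.41) lie below the lower dashed line at the right.

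Each gene is represented by its brightest probe set in the counts that follow. In HIF2α-KD cells 3 of the 6 genes were at least 2-fold higher in hypoxia, against 1.38% of all genes, and in control cells 3 of 6 were, against 3.04%. They were *ADM*, *NDRG1* and *VEGFA* in both. Of these, *NDRG1* passed the filter only on the hypoxic arrays, where it was high, so its place in these counts is no independent support. None of the 6 genes was 2-fold lower, against 0.42% of all genes in HIF2α-KD cells and 0.543% in control cells. All 6 differences were above 0 in each cell line, as were 53.1% and 53.2% of all genes. The median over the 6 genes was 1.40 under the knockdown label and 1.12 in control cells, and the median over all genes was 0.02 and 0.03. *ANGPTL4*, *STC1* and *EDN1* did not reach a 2-fold hypoxia difference at their brightest probe sets.

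A fit with limma over the 4 arrays, with an additive term for oxygen and another for cell line, tested hypoxia against normoxia across both lines. It has 1 residual degree of freedom and takes the hypoxia difference to be the same in both lines. Hypoxia raised 4 of the 6 genes at an adjusted p under 0.05, against 2.46% of all genes. Of these, *NDRG1* had entered the fit only through the hypoxic arrays, where it was high, so its call is no independent support. *ADM* rose by 4.07 ± 0.23 (moderated standard error, limma adjusted p = 0.00108), higher in both lines. *NDRG1* rose with a fitted value of 3.08 ± 0.36 (limma adjusted p = 0.0116), which was 2.02 with a pseudocount of 64 and 3.89 with 1, since its normoxic values were not above background. *VEGFA* rose by 1.66 ± 0.17 (limma adjusted p = 0.0075) and *ANGPTL4* by 0.86 ± 0.14 (limma adjusted p = 0.0345). For *STC1* the fitted difference was 0.44 ± 0.13 (limma adjusted p = 0.126) and for *EDN1* 0.19 ± 0.11 (limma adjusted p = 0.385), so neither passed. The call of *ANGPTL4* was lost without the filter (limma adjusted p = 0.118) and without the variance trend (limma adjusted p = 0.0668). That of *NDRG1* was lost without the filter (limma adjusted p = 0.0558) and with robust moderation of the variance (limma adjusted p = 0.118), and those of *ADM* and *VEGFA* held under 9 of 9 alternatives.

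The same fit called 0 genes for HIF2α-KD against control, with 206 higher and 734 lower at an unadjusted p under 0.05, so 0 of the 6 genes passed. *VEGFA* differed most among them, by -1.11 ± 0.17 (limma adjusted p = 0.143), lower at both oxygen levels. With each array centred on its median it passed (limma adjusted p = 0.0441), and there 31 genes were called for this term. Over all alternatives its adjusted p in limma was 0.0441 to 0.399. *STC1* differed by -0.42 ± 0.13 (limma adjusted p = 0.344), and *NDRG1* by -0.67 ± 0.36 (limma adjusted p = 0.634).

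**Figure D3:**
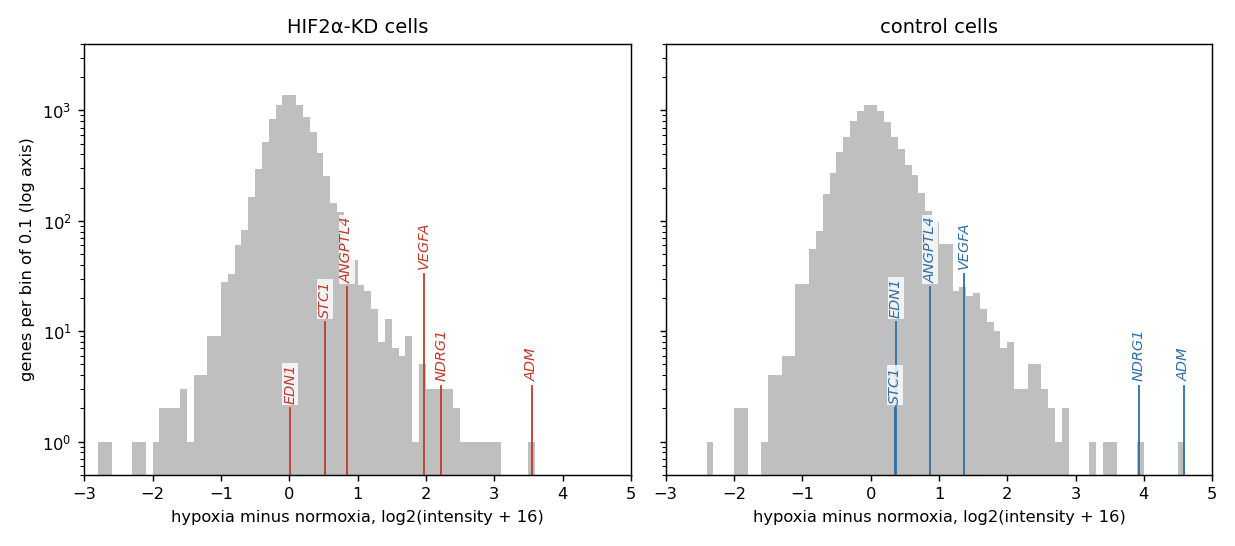
Histogram of the hypoxia minus normoxia difference on the log2(intensity + 16) scale over 9766 genes, in bins of 0.1 and with a log axis for the number of genes, in HIF2α-KD cells at the left and in control cells at the right. Lines mark the 6 genes by their brightest probe set. *ADM* lies at the far right of both, at 3.55 and 4.59, and *EDN1* within the bulk.

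Whether the hypoxia response differs between the cell lines is read from the difference of the hypoxia differences, HIF2α-KD minus control. With 1 array per condition it has no test. It was -1.04 for *ADM*, and -1.69 for *NDRG1*, whose size cannot be read because both of its normoxic values were not above background. With that limit, 2 of the 6 genes were below -1, against 1.79% of all genes, while none was above 1, against 0.758%. For *EDN1* it was -0.35, for *ANGPTL4* -0.03 and for *STC1* 0.17. For *VEGFA* it was 0.60 at the bright probe set, because the array labelled HIF2α-KD was lower still in normoxia, while the dim one gives no readable value, as it was not above background in normoxia. The value of the bright probe set is the only one of the 6 above 1.5-fold in that direction, against 4.22% of all genes. It lay close to that threshold and fell below it with a pseudocount of 64 (0.54). The values of the 3 probe sets of *ANGPTL4* ranged from -0.37 to 0.18. The normoxic array labelled HIF2α-KD, on which *EPAS1* was not lower, enters each of these values. The comparison of both lines in hypoxia does not use it, and there *NDRG1*, *ADM* and *VEGFA* were lower on the HIF2α-KD array, and *STC1* and *EDN1* by less.

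The partners of the 6 genes were read from lists chosen for each system. Several receptors were above background on no array, while *FLT1*, *FLT4* and *NRP2* were above it on all. The processing enzymes *PAM*, *ECE1* and *ECE2* were above it on all arrays, and the listed *ECEL1* on none. Of 9 genes of the adrenomedullin and calcitonin system with a probe set, 5 were above background on no array, among them *CALCRL*, the receptor of adrenomedullin, at 2.26 to 4.58, and the accessory proteins *RAMP1* and *RAMP2*. *PAM*, which amidates adrenomedullin to its active form, was bright at 1390 on the HIF2α-KD array and 1715 on the control array in hypoxia, against 1953 on the normoxic array labelled HIF2α-KD and 2364 on the control array in normoxia. Its hypoxia difference was -0.49 under the knockdown label and -0.46 in control cells, so that it was lower where *ADM* was higher.

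Of the VEGF family and its receptors 5 of 10 genes passed the filter. *KDR*, the main signalling receptor of VEGFA, was above background on no array, whereas *FLT1*, its high-affinity decoy receptor, had 1199 on the HIF2α-KD array and 1213 on the control array in hypoxia, and 1672 on the normoxic array labelled HIF2α-KD and 1208 on the control array in normoxia. *VEGFC*, a growth factor for lymphatic vessels, differed by 0.20 between hypoxia and normoxia under the knockdown label and by 0.45 in control cells, and *VEGFB* by -0.07 and -0.45. *NRP2*, a co-receptor, differed by -0.94 between HIF2α-KD and control in hypoxia. None of the 5 genes reached 2-fold in any of the 4 comparisons or was called for oxygen by limma. Of all genes, 0.983% to 3.58% reached 2-fold either way in these comparisons, and limma called 2.88% for oxygen.

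In the endothelin system both receptor genes, *EDNRA* and *EDNRB*, were above background on no array. The converting enzymes *ECE1* and *ECE2* differed by -0.08 and 0.06 between hypoxia and normoxia under the knockdown label, and by 0.24 and -0.42 in control cells. *EDN3*, a relative of *EDN1*, differed by 0.35 under the knockdown label and by -0.80 in control cells, and was not above background on the hypoxic control array. *EDN2*, the other relative, was dim, at 35.2 on the HIF2α-KD array and 39.6 on the control array in hypoxia, and at 18.8 on the normoxic array labelled HIF2α-KD and 16.6 on the control array in normoxia. None of 4 kept genes reached 2-fold in the 4 plain comparisons, against 0.983% to 3.58% of all genes either way. None was called for oxygen, against 2.88% of all genes. The difference of the hypoxia differences was 1.15 for *EDN3*, which rests on the hypoxic control value not above background.

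*ANGPTL4* is also a target of the PPAR receptors. Of 10 kept genes of the related families and lipid enzymes limma called 1 for oxygen, against 2.46% of all genes called higher and 0.42% called lower. *LIPG*, the endothelial lipase gene, had 25.9 on the HIF2α-KD array and 36.8 on the control array in hypoxia, and was not above background in normoxia, at 3.32 on the array labelled HIF2α-KD and 4.33 on the control array. It was called higher (limma adjusted p = 0.0416), and no size is given because its normoxic values were not above background. It passed the filter only through the hypoxic control array, so its call is no independent support for a hypoxia difference. *PPARG*, a nuclear receptor of fat metabolism, differed by 0.42 under the knockdown label and 0.84 in control cells, the lipid droplet gene *PLIN2* by 0.52 and 0.77, and the fatty acid importer *CPT1A* by -0.57 and -0.66. *STC2*, the relative of *STC1*, differed by 0.26 in control cells and was not above background on the normoxic array labelled HIF2α-KD, and *NDRG3*, a relative of *NDRG1*, differed by -0.12 under the knockdown label and 0.20 in control cells.

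Other secreted products of HIF targets differed little between hypoxia and normoxia. Of 18 genes with a probe set 9 passed the filter, and 7 were above background on no array. In hypoxia 0 were 2-fold higher in either line, against 1.38% of all genes under the knockdown label and 3.04% in control cells. None was 2-fold lower, against 0.42% and 0.543%. *LOX*, which crosslinks collagen, had 668 on the HIF2α-KD array and 999 on the control array in hypoxia, and 452 on the normoxic array labelled HIF2α-KD and 520 on the control array in normoxia, and its fitted oxygen difference of 0.73 did not pass (limma adjusted p = 0.0636). The list median in hypoxia was -0.06 under the knockdown label and 0.08 in control cells.

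The intracellular and membrane products of HIF targets, such as glycolytic enzymes, differed from these. Of 30 kept genes limma called 23 higher in hypoxia and 0 lower, against 2.46% of all genes called higher. At least 2-fold higher were 18 under the knockdown label, against 1.38% of all genes, with a list median of 1.42. In control cells 19 were, against 3.04%, with a list median of 1.35. *ANKRD37*, *EGLN3*, *PFKFB3* and *PDK1* differed most in control cells. *EGLN3* was not above background in normoxia and passed the filter in hypoxia only, so the size of its difference depends on the pseudocount. For the same reason its limma call and its place in both 2-fold counts are no independent support. The list was also chosen with earlier results of these data known. *PDK1*, which keeps pyruvate out of the mitochondria, had 2711 on the HIF2α-KD array and 2956 on the control array in hypoxia, and 303 on the normoxic array labelled HIF2α-KD and 438 on the control array in normoxia. HIF2α-KD minus control in hypoxia was below 0 for 28 of these 30 genes, as it was for 55.7% of all genes. The list median was -0.33, and 0 of 30 were 2-fold lower, against 0.881% of all genes. In normoxia 20 of 30 were below 0 under the knockdown label, against 56.5% of all genes. There 2 were at least 2-fold lower, against 0.543% of all genes. They were *VLDLR*, a lipoprotein receptor gene, at -1.92 and *BHLHE40*, a transcriptional repressor gene, at -1.06, beside -1.41 for *VEGFA*. In hypoxia the lowest HIF2α-KD minus control value of the 30 was that of *INSIG2*, a regulator of sterol synthesis, at -0.80. In that comparison it lay above *NDRG1* (-1.52) and *ADM* (-0.91) and level with *VEGFA* (-0.81).

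Of 8 genes of HIF subunits and regulators limma called 0 for oxygen, against 2.46% of all genes called higher and 0.42% called lower. *HIF1A*, the gene of the other main oxygen-regulated subunit, had 2473 on the HIF2α-KD array and 2651 on the control array in hypoxia, against 3503 on the normoxic array labelled HIF2α-KD and 3755 on the control array in normoxia, so that the cell lines differed little at either oxygen level.

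Stress genes were read because *VEGFA* and *STC2* also answer to the unfolded protein and amino acid responses. Of 13 kept genes limma called 2 higher in hypoxia, *ATF3* by 0.97 (limma adjusted p = 0.0227) and *HERPUD1* by 0.81 (limma adjusted p = 0.0323), and 0 lower, against 2.46% of all genes called higher and 0.42% called lower. In hypoxia 11 of 13 were below 0 on the HIF2α-KD array against control, as were 55.7% of all genes, and *PPP1R15A*, *DDIT3* and *CHAC1* were at least 2-fold lower, by -1.94, -1.57 and -1.22, against 0.881% of all genes. *CHAC1* was also counted as 2-fold lower in normoxia, where it was not above background under the knockdown label. In normoxia 10 of 13 were below 0 under that label, against 56.5% of all genes, with *ATF4*, the transcription factor of this response, at -0.77. *VEGFA* was lower in the same comparisons, and the part of these stress genes in its values was not tested.

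**Figure D4:**
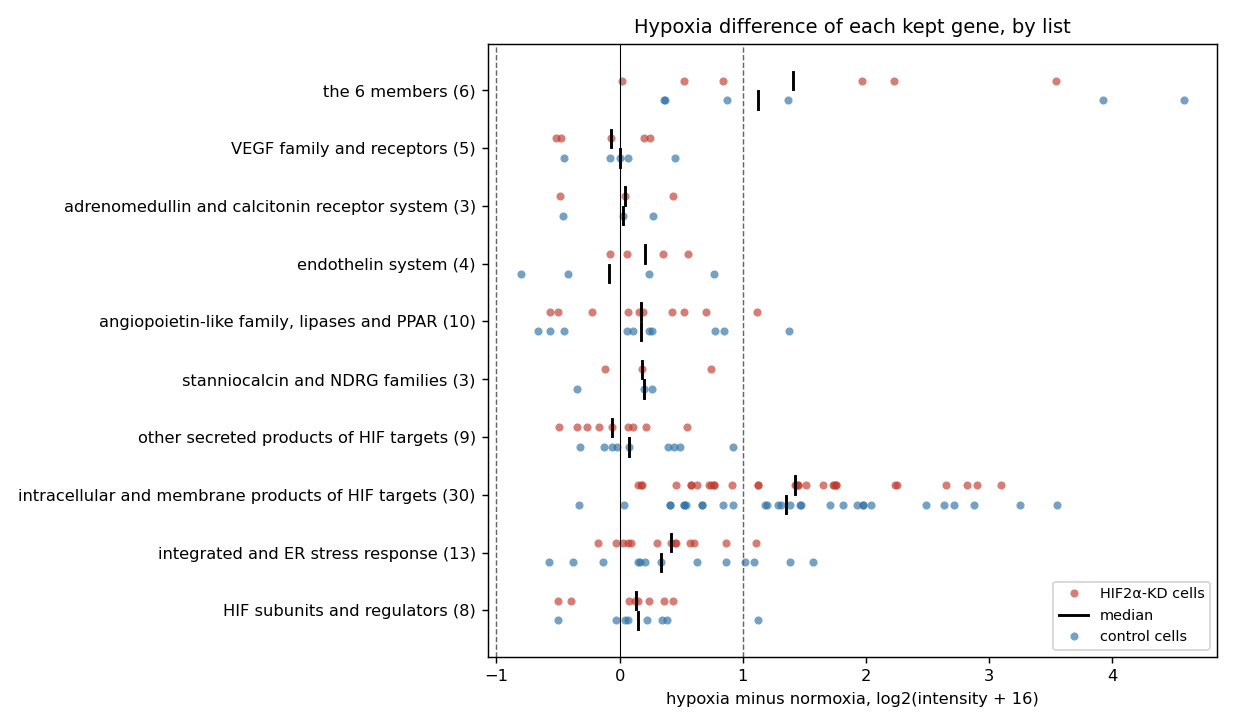
Hypoxia minus normoxia on the log2(intensity + 16) scale for each kept gene of the lists, with HIF2α-KD cells (red) above control cells (blue), black bars at the list medians and the number of genes in brackets. Dashed lines mark 2-fold. The intracellular and membrane HIF targets have medians of 1.42 and 1.35, and the other secreted products of -0.06 and 0.08.

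The genes with the most similar profile were found by the Euclidean distance over the 4 arrays between log2(intensity + 16) values centred on each gene's mean. For *ADM* they were *ANKRD37* (distance 0.90), *EGLN3* (1.05) and *NDRG1* (1.08), where the median distance to all genes was 4.10. *ANKRD37* had 958 on the HIF2α-KD array and 1556 on the control array in hypoxia. In normoxia it had 122 on the array labelled HIF2α-KD and 118 on the control array. It thus had the same order as *ADM* within hypoxia and within normoxia, which is no separate result because it was chosen by its profile. For *NDRG1* they were *ANKRD37* (0.60), *EGLN3* (0.72) and the chemokine gene *CCL17* (1.06). Distances that involve *NDRG1* or *EGLN3* depend on the pseudocount, because neither gene was above background in normoxia.

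*VEGFA* lay nearest to *FGFBP1* (0.36), which encodes a carrier of fibroblast growth factors, *INSIG1* (0.40) and *BHLHE40* (0.40). *FGFBP1* had 1851 on the HIF2α-KD array and 3400 on the control array in hypoxia. In normoxia it had 346 on the array labelled HIF2α-KD, its lowest value, and 1086 on the control array. The gene was chosen by its profile over these arrays, so a lowest value on the same array as *VEGFA* is no separate result. *ANGPTL4* lay nearest to *SAXO1*, *TIMM29* and *STAU1* (0.04 to 0.08), *STC1* to *PPIP5K2*, *IWS1* and *GAB1* (0.04 to 0.05), and *EDN1* to *PROSER1*, *KHDC4* and *EIF4G3* (0.02 to 0.04). Profiles as flat as those of *STC1* and *EDN1* have near neighbours among many genes, and with 4 arrays a small distance describes these arrays only.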

How the data were processed

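Total RNA of MDCK cells was turned by the authors into biotinylated cRNA (Affymetrix 3' labelling kit) and hybridised to 1 array per condition. The deposited table holds an intensity per probe set on a linear scale, while for the summarization, the background correction and the scaling the authors' choices and programs were not found in the labels or the methods. Of 42924 probe sets 29254 carry 1 gene symbol, 439 several, 13167 none and 64 are reporters, 1 of them bright and left out. By Entrez ID 27680 matched RefSeq genes (UU_Cfam_GSD_1.0). No genome or sequence table was used, so no coordinates or sequences are given. Probe set names ending in _s_at mark probes that can match several transcripts.

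Differences were taken on log2(intensity + 16) without further normalization, and a gene was counted at 2-fold, a log2 difference of 1. Genes with an intensity of 28.6 or more on an array were kept, each as its probe set with the highest mean. Bounds ("at least") divide the hypoxic intensity by the reporters' 95th percentile on the normoxic array. The limma fit used lmFit, eBayes with trend and Benjamini-Hochberg at 0.05. It was also run on simulated data with a single noise level for all genes and the same hypoxia effect in both lines. That run cannot show how the fit behaves on these arrays, where the hypoxia differences of the lines were not equal. The genes named are the 6 genes, *EPAS1*, in each list up to 4 with the largest hypoxia difference in control cells and those past 2-fold in a counted comparison, and the 3 nearest profiles. Receptors, processing enzymes and relatives of the 6 genes, the lowest gene of a list, *ATF4*, *CDH1*, *PAM* and *NRP2* were named after their values were seen. So were the non-epithelial markers above background. The members and lists were chosen with earlier results of these data known. Alternatives were pseudocounts of 1 and 64, quantile normalization, median centring, averaging over all probe sets of a gene, no filter, a filter at the 75th percentile (175), a 1.5-fold threshold, and limma without trend or with robust moderation. The number of arrays limits the precision. Tools were R 4.3.3, limma 3.58.1, Python 3.11.15, numpy 2.4.6, pandas 2.3.3 and matplotlib 3.10.9.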

Additional observations from a re-analysis of the deposited data

Results flagged for a closer look

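For *ADM* and *EDN1* the HIF2α-KD difference had opposite signs at the 2 oxygen levels, as did the computed values of *NDRG1*. These differences were not tested, since each rests on 1 array per condition. *ADM* differed by -0.91 in hypoxia and by 0.13 in normoxia on the log2 scale. *NDRG1* differed by -1.52 in hypoxia and by 0.18 in normoxia, where it was not above background on either array, so that no direction is drawn from that value. *EDN1* differed by -0.19 in hypoxia and by 0.16 in normoxia. The signs held under 7 of 7 alternatives for both values of *ADM* and *EDN1*.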

How the results depend on the processing

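No paired analysis was possible because each condition has 1 array and thus no replicate numbers to pair by, although the additive fit sets hypoxia against normoxia within each cell line. For the same reason no array could be left out of a comparison. Hypoxia differences of *ADM*, *VEGFA* and *NDRG1* stayed 2-fold or more under all alternatives of scaling, pseudocount, filter and probe set in both cell lines. *ANGPTL4* passed 2-fold with a pseudocount of 1, at 1.01 under the knockdown label and 1.07 in control cells, which gives 4 genes in each line. *NDRG1* moved most with the pseudocount, from 1.34 (64) to 2.91 (1) under the knockdown label and from 2.70 (64) to 4.86 (1) in control cells. *VEGFA* was no longer 2-fold lower on the normoxic array labelled HIF2α-KD with the mean of its probe sets (-0.89), which leaves 0 genes in that count. Members at least 1.5-fold lower on the HIF2α-KD array in hypoxia numbered 3, and 1 hypoxia difference was at least 1.5-fold larger under the knockdown label. The latter, that of *VEGFA* (0.60), was below 1.5-fold with a pseudocount of 64 (0.54) and with the mean of its probe sets (0.20). *ADM* left the count of smaller responses with quantile normalization and with median centring, which each leave 1 gene. For *EDN1* the small hypoxia difference under the knockdown label was -0.05 with median centring, which moves the median of all genes by -0.06 in that comparison and by -0.10 in the hypoxia comparison of control cells. The background counts moved with the pseudocount. With 1 and with 64 added, 234 and 75 genes were 2-fold higher in hypoxia under the knockdown label (135 with 16), 462 and 177 in control cells (297 with 16), and 153 and 33 were 2-fold lower on the HIF2α-KD array in hypoxia (86 with 16). In normoxia 124 and 31 were 2-fold lower under the knockdown label (53 with 16), and 322 and 87 had a smaller hypoxia difference by 2-fold or more under that label (175 with 16).

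Of the 281 genes called for oxygen (240 higher, 41 lower) 85.4% were higher, but 67.3% with quantile normalization and 60.2% with median centring. Higher calls numbered 63 without a filter and 89 without the trend. Lower calls numbered 69 with a pseudocount of 1, 161 with quantile normalization, 208 with median centring, 7 without a filter, 14 without the trend and 108 with robust moderation. Without a filter 2 of the 6 genes were called. For the cell line, calls higher and lower were 1 and 9 with a pseudocount of 1, 0 and 4 with 64, 3 and 15 with quantile normalization, 4 and 27 with median centring (1 of them *VEGFA*), and 1 and 20 with robust moderation. The causes of these shifts were not tested.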
